A study of Oryza sativa with 4 samples.

Results

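Of the 51965 positions (loci) in the expression table of this rice study, 1670 had at least 1 row that carries no rice locus ID. These loci without an ID were chosen by that blank in the gene column alone and taken once per position. Of the 57143 rows in the table, 1750 carried no ID, and 1002 rows with an ID shared a position with them. Expression was measured by RNA-seq after oligo(dT) enrichment in young panicles, the developing inflorescence. The labels give 2 samples of osrdr2-3, whose genotype is a DES1 mutant, and 2 control samples of Nip, all of them japonica rice grown in soil. The table names 6 libraries, and the 3 with mutant names could not be matched to the 2 labelled mutant samples, so their values were left out and the mutant difference was not analysed here. All values below are from the 2 control-named libraries whose numbers match those of Nip replicates 1 and 2 (n = 2 for each mean ± SD). The table has 1 more control name, which no label matches, so the match of names to Nip samples rests on the numbers alone. Separate plants are not stated for them, and the spread between them can be technical.

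OsRDR2 is an RNA-dependent RNA polymerase of RNA-directed DNA methylation. In this pathway of plants, transcripts of transposons and other repeats are copied into double-stranded RNA, cut into small interfering RNAs and used to direct cytosine methylation back to the loci they came from. Stretches of a genome that are transcribed but not annotated can be long noncoding RNAs, transposon transcripts, ends of known genes or genes that an annotation missed. Which of these a locus is cannot be read from the table, which gives a position and a level but no strand, exon or sequence.

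Both Nip libraries carried transcripts of the targeted gene and of the panicle. OsRDR2 (LOC_Os04g39160, chromosome 4, 23284654 to 23290538) was at 13.8 (replicate 1) and 12.8 FPKM (replicate 2). FPKM counts fragments relative to transcript length and library size. All 8 floral genes of a panicle list, among them OsMADS1 and OsMADS16, were at 10 FPKM or more in both libraries, with a range of 16.7 to 1686 FPKM. The 3 photosynthesis genes of a green-tissue list lay between 57.2 and 357 FPKM. Coordinates are those of the table, whose genome build no source used here names.

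The loci without an ID were spread over all 12 nuclear chromosomes, and on the organelle genomes every row was of this kind. The numbered chromosomes held 1641 of them, from 88 on chromosome 9 to 213 on chromosome 1. Relative to annotated rows, chromosome 11 had the most, with 3.71 loci per 100 rows with an ID, followed by chromosome 10 with 3.56. Chromosome 5 had the fewest, with 2.42. The chloroplast rows numbered 11 and the mitochondrial rows 20, at 14 loci, and none of them carried an ID. The other 4 loci lay on the sequences named ChrSy and ChrUn.

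Few stretches of the genome were without such a locus. Of 380 windows of 1 Mb, 5 held none, and the median window held 4 beside 146 rows with an ID. The fullest window, on chromosome 8 between 18 and 19 Mb, held 14, of which 7 reached 1 FPKM in both libraries. The next, on chromosome 11 between 24 and 25 Mb, held 13. Within 1000 bases of another locus without an ID lay 143 of them (8.57%), and the median gap to the nearest other one on either side was 66509 bases.

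Their spans were shorter than those of annotated rows. The median span was 1596 bases (quartiles 945 and 3295), against 2938 bases (1270 and 5393) for the 55393 rows with an ID. Taken once per position, as the loci without an ID were, the 50465 loci with an ID had a median of 2640 bases (1152 and 4583). The class above 1000 and up to 2000 bases was the fullest, with 525 loci (31.4%), against 17.2% of rows with an ID. Spans of 500 bases or less were found at 84 loci (5.03%), against 7.84% of rows with an ID. At the other end, 60 loci spanned more than 20000 bases, and 55 of these had a position that rows with an ID share. A span is therefore not always the length of a transcript: where several rows have the same position, it covers all of them.

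The gaps to annotated neighbours were similar to those between annotated loci, apart from loci that share a position with an annotated row. At 170 loci (10.2%) a row with an ID had exactly the same position, and 1 more locus overlapped such a row. The other 1474 nuclear loci were separated from the nearest row with an ID by a median of 1433 bases (quartiles 561 and 2829, range 8 to 80574). Loci with an ID had a median gap of 1371 bases (quartiles 628 and 2606) to the next such locus, among those that do not touch it. Counting those that touch, 759 of 1645 loci without an ID (46.1%, 95% exact binomial interval 43.7 to 48.6, which covers counting only) were within 1000 bases, against 39.0% of loci with an ID. Without the 170 loci at a shared position, a class that loci with an ID cannot have, the share was 39.9%. Since the table gives no strand, the side of the neighbour on which a locus lies was not known.

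**Figure D1:**
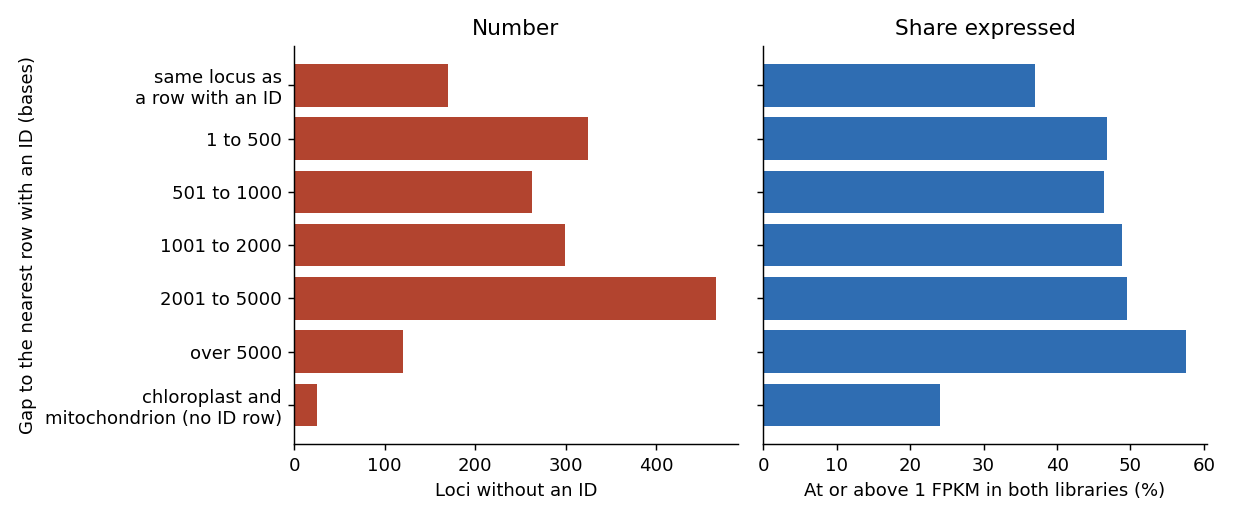
Loci without an ID by their gap in bases to the nearest row with an ID, as numbers of loci (left) and as the percentage of each class at or above 1 FPKM in both Nip libraries (right). The single locus that overlaps a row without having its position is not drawn. The class above 2000 and up to 5000 bases is the fullest with 467 loci, and the expressed share is 37.1% at a shared position and 57.5% beyond 5000 bases.

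A larger share of the 120 loci more than 5000 bases from any row with an ID was expressed than of those nearby. At or above 1 FPKM in both libraries were 69 of these 120 (57.5%), 231 of 467 (49.5%) above 2000 and up to 5000 bases and 152 of 325 (46.8%) at 1 to 500 bases. The share was similar above 500 and up to 1000 bases (122 of 263, 46.4%) and above 1000 and up to 2000 bases (146 of 299, 48.8%). At a position shared with a row with an ID the count was 63 of 170 (37.1%). The median mean level was 1.69 FPKM beyond 5000 bases, 1.08 FPKM at 1 to 500 bases and 0.884 FPKM at a shared position. The nearest annotated rows had a median of 8.97 FPKM at a shared position, taking the highest row of each position. Their median was 2.91 FPKM at 1 to 500 bases and 0.0324 FPKM for loci beyond 5000 bases. Between these it did not fall steadily, with 0.443 FPKM up to 1000 bases, 0.788 FPKM up to 2000 and 0.252 FPKM up to 5000. Over 1475 loci without a shared position, levels of locus and nearest annotated row had a rank correlation (Spearman) of -0.0324. No test was made of these shares, because loci of the same 2 libraries are not replicates.

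The table lists each of the 12 numbered chromosomes in 3 passes of rising position, and the last pass consists almost wholly of rows without an ID. Of its 804 rows on the nuclear sequences 802 had none (99.8%), against 470 of 28237 rows (1.66%) in the first pass and 447 of 28071 (1.59%) in the second. No source used here states what the passes stand for. Rows without an ID differed between them in span and in level. The median span was 1076 bases in the last pass, against 2587 in the first and 2582 in the second. For comparison, it was 2938 bases over rows with an ID and 2640 over loci with an ID. The median mean level was 0.645 FPKM in the last pass, 1.46 FPKM in the first and 2.04 FPKM in the second. At or above 10 FPKM in both libraries were 21 of the 802 rows (2.62%), against 59 of 470 (12.6%) and 62 of 447 (13.9%).

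Low values of the last pass revealed the fragments behind them. For 686 loci of that pass with a single row and no annotated row at their position, the span was taken as the length of the transcript. Among the 549 of these that span more than 600 bases, the level multiplied by the span less 285 bases fell on whole multiples of 0.0361 FPKM times kilobase in replicate 1. In replicate 2 the fitted values were 281 bases and 0.0387 FPKM times kilobase. The fit was made on values of 1 to 16 steps, without those of 16 steps in replicate 2. All 274 values of 1 to 16 steps in replicate 1 and all 280 in replicate 2 came within 0.1 step of a whole number. So did all 141 and all 139 values of 17 to 50 steps, which the fit did not use, where 20% would be counted as whole if there were no steps. Of values of 51 to 200 steps 86.8% (replicate 1) and 87.3% (replicate 2) were whole. Read as fragments, a level of 1 FPKM over 1 kb of usable length stood for 27.7 fragments in replicate 1 and 25.8 in replicate 2.

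**Figure D2:**
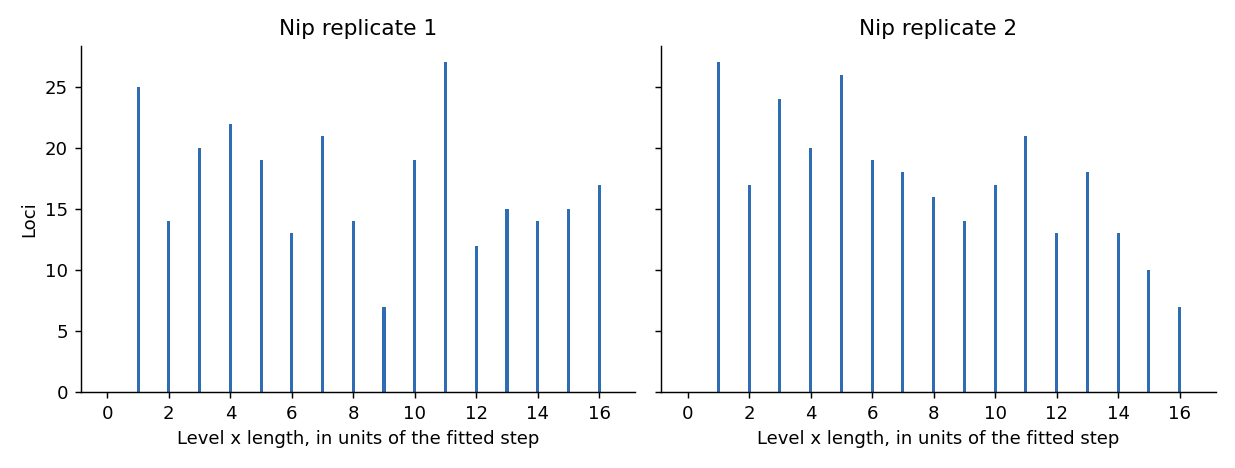
Number of loci of the last pass (vertical axis) by level times usable length, in units of the fitted step (horizontal axis, up to 16), for each Nip library. The values stand at whole numbers with nothing between them.

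The median over these 549 loci was 13 fragments in replicate 1 (quartiles 5 and 30) and 12 in replicate 2 (quartiles 4 and 30). At least 10 fragments in both libraries were reached by 273 loci (49.7%), whereas 81 had 3 or fewer in both, of which 36 had 0 in both. A count of 0 allows up to 3 fragments, by counting error alone. The 150 loci at or above 1 FPKM in both libraries had a median of 53 and 47 fragments and no fewer than 9 in either. A check of counting noise covered 340 loci with 10 or more fragments in the sum of both libraries and up to 50 in each. It gave a chi-square of 1.72 per degree of freedom (chi-square test, p = 3.2e-15, taking the loci as independent). The loci were selected on these same inferred fragments, and loci are not replicates. Taken as independent counts, their fragments differed between the libraries by more than counting noise alone. Such a difference cannot tell separate plants from technical spread. The check bears on these libraries only.

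Levels of the loci without an ID were concentrated between 0.1 and 10 FPKM. In that range lay 648 loci with a mean of 0.1 to 1 FPKM (38.8%) and 717 with a mean of 1 to 10 FPKM (42.9%), against 9.98% and 17.6% of rows with an ID. Both ends of the range were thinner. Listed at 0 in both libraries were 84 loci (5.03%), against 44.2% of rows with an ID. At or above 10 FPKM in both libraries were 146 (8.74%), against 20.8%, and 12 (0.719%) reached 100 FPKM, against 2.01%. In all, 789 loci (47.2%) were at or above 1 FPKM in both libraries, against 38.0% of rows with an ID. Over entries above 0 in at least 1 library this order was reversed, with 49.7% of 1586 loci and 68.1% of 30893 rows with an ID. No source used here states how these loci entered the table, and no test set their levels against those of annotated rows.

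**Figure D3:**
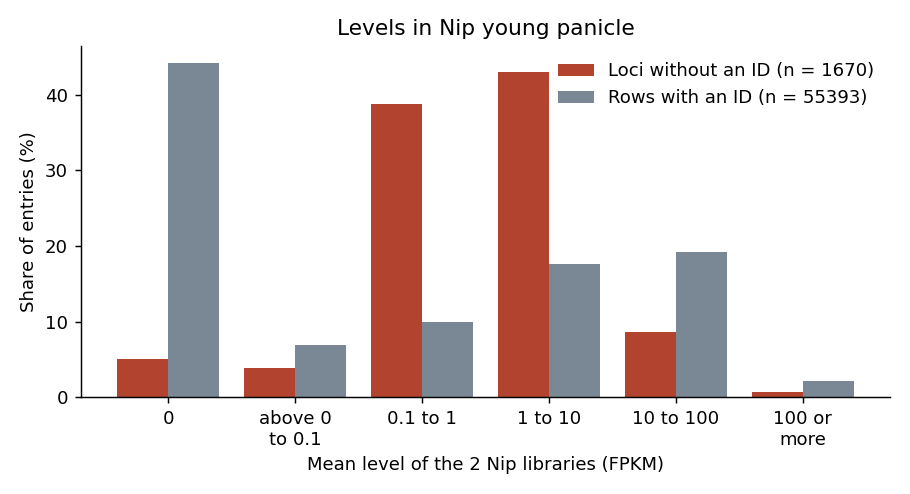
Share of loci without an ID (red, left in each pair) and of rows with an ID (grey) by mean level of the Nip libraries in FPKM. Loci without an ID peak at 1 to 10 FPKM with 42.9%, whereas 44.2% of rows with an ID are at 0.

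Together the loci without an ID held 1.27% of the summed FPKM in replicate 1 and 1.29% in replicate 2. The 10 highest loci made up 26.1% of that sum in replicate 1 and 26.6% in replicate 2. Over the 12 numbered chromosomes, the share of loci at or above 1 FPKM in both libraries ran from 37.3% of 110 on chromosome 5, against 38.4% of its rows with an ID, to 56.8% of 139 on chromosome 4, against 34.4%. Of the 12 loci at or above 100 FPKM in both libraries, 5 were on chromosome 4, which held 139 of all 1670 loci without an ID. This small count was not tested.

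The highest locus, chr7:21672726-21674191, was at 375.5 (replicate 1) and 386.4 FPKM (replicate 2) (mean 381 ± 7.72). It ranked 175 among all 57063 entries of the table. Its nearest annotated row, LOC_Os07g36260, lay 559 bases away and was at 3.48 and 2.75 FPKM in replicates 1 and 2. The second, chr12:12240383-12242538, was at 302.9 (replicate 1) and 311.6 FPKM (replicate 2) (mean 307.3 ± 6.18). LOC_Os12g21760, 1596 bases from it, was listed at 0 in both libraries. Both loci were above their neighbours in both libraries.

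The third, chr3:4110310-4119645, was the exception among the 10 highest, since it had the same position as an annotated row that was higher. It was at 314.8 (replicate 1) and 270.7 FPKM (replicate 2) (mean 292.8 ± 31.2), and LOC_Os03g08050 at that position was at 593.2 and 601.8 FPKM. Without strand information, reads of the 2 rows may not be separable. The fourth, chr3:32398403-32400038, was at 262.1 (replicate 1) and 280.9 FPKM (replicate 2) (mean 271.5 ± 13.3). Its neighbour LOC_Os03g56890, 228 bases away, was at 0 (replicate 1) and 0.159 FPKM (replicate 2).

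On chromosome 7, chr7:2092788-2093786 was the least even of the 10, at 232 (replicate 1) and 288.1 FPKM (replicate 2) (mean 260.1 ± 39.7). LOC_Os07g04720, 603 bases away, was listed at 0 in both libraries. From the second to the sixth locus, each mean differed from the next by less than the larger of the SDs, and the order was not the same in both libraries.

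Chromosome 4, with 139 of the 1670 loci without an ID, held 4 of the 10 highest. The locus chr4:18369341-18371147 was at 241.5 (replicate 1) and 257.9 FPKM (replicate 2) (mean 249.7 ± 11.6), with LOC_Os04g30740 at 10.01 and 9.24 FPKM 445 bases from it. The locus chr4:20432518-20435769 was at 204.7 and 202.9 FPKM (mean 203.8 ± 1.27), and its neighbour LOC_Os04g33720, on a row with another ID, was 5456 bases away at 12.7 and 10.9 FPKM. This was the 1 locus of the 10 more than 5000 bases from an annotated row. The locus chr4:22461303-22464078 was at 171.9 and 178.6 FPKM (mean 175.2 ± 4.71), with LOC_Os04g37790 2288 bases away at 4.65 and 4.90 FPKM.

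The last of the 4, chr4:4405754-4418882, was at 147.8 (replicate 1) and 137.4 FPKM (replicate 2) (mean 142.6 ± 7.32), 293 bases from LOC_Os04g08280 at 0.664 and 0.917 FPKM. Between these lay chr2:12185353-12187057, at 165.2 and 157 FPKM (mean 161.1 ± 5.76). Its neighbour LOC_Os02g20690, 4573 bases away, was at 0.0526 FPKM in replicate 1 but 0 in replicate 2. In all, 9 of the 10 loci were above their nearest annotated row, and for 5 of the 10 that row was under 1 FPKM in both libraries. The 10 were picked for high levels, so most of them could be expected to exceed a neighbour. Low neighbours were also common in general. Over the 1475 nuclear loci whose position no annotated row shares, the nearest annotated row had a median of 0.592 FPKM. It was at or above 1 FPKM in both libraries for 46.4% of them. Of these 1475 loci, 783 were above their nearest annotated row. The SD between the libraries was 0.623% to 15.2% of the mean over the 10, and none of them stood in the last pass of the table.

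**Figure D4:**
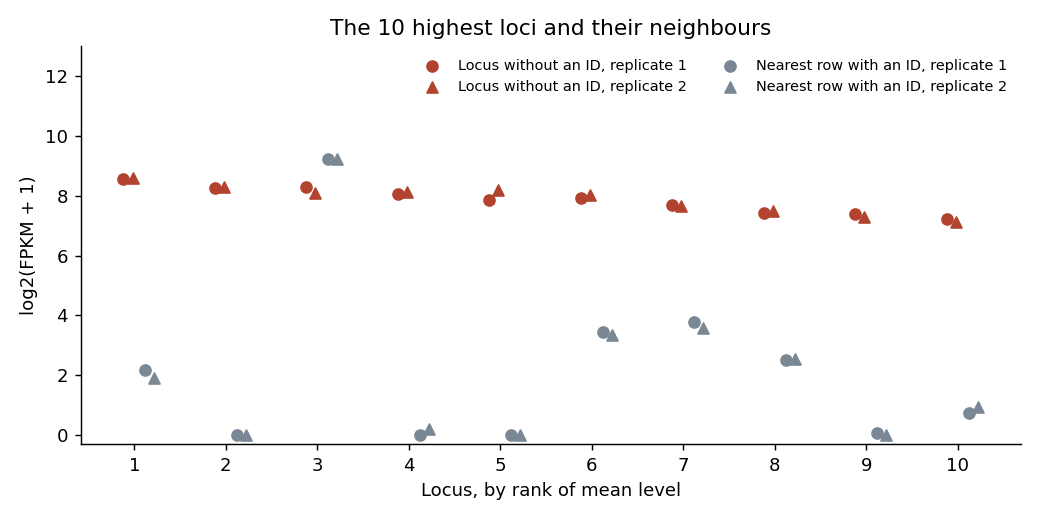
Levels of the 10 highest loci without an ID, on the log2(FPKM + 1) scale, in order of their mean (red), and of the nearest row with an ID (grey), with replicate 1 as circles and replicate 2 as triangles. The third locus alone lies below its neighbour, and 5 of the neighbours are under 1 FPKM in both libraries. Over all 1475 nuclear loci at a position of their own, the median of the nearest row is 0.592 FPKM.

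The longest positions held many annotated rows. Among the loci at or above 1 FPKM in both libraries, the longest was chr8:13184975-13531166, a span of 346191 bases with 43 rows with an ID. Its row without an ID was at 9.36 (replicate 1) and 7.25 FPKM (replicate 2). The next, chr9:13319808-13625138, had 4 rows without an ID, which summed to 10.9 and 13.3 FPKM, and 54 with one. At chr2:2309751-2604033, 3 rows without an ID summed to 7.17 and 7.09 FPKM beside 48 rows with one. Several rows without an ID at 1 position were found at 68 loci, of which 55 reached 1 FPKM in both libraries on the summed level. At the 170 shared positions as a whole, rows without an ID held 5.97% of the summed mean level, and at 24 of them they were above the highest annotated row.

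The 3 shortest expressed loci differed in how even they were. The shortest at or above 1 FPKM in both libraries, chr1:10944841-10945090 with a span of 249 bases, was at 5.10 (replicate 1) and 9.64 FPKM (replicate 2). At chr12:23898390-23898647, of 257 bases, the levels were 10.5 and 4.01 FPKM. The third of them, chrC:49161-49422 of 261 bases, was even, at 36.5 and 33.1 FPKM. Both nuclear loci had an annotated row within 500 bases, LOC_Os01g19340 at 0 in both libraries and LOC_Os12g38870 at 14.7 and 15.4 FPKM.

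The most isolated expressed loci lay on chromosome 11. The locus chr11:12143132-12149001 was 73464 bases from the nearest annotated row, LOC_Os11g21800, which was at 0.211 (replicate 1) and 0.15 FPKM (replicate 2). The locus itself was at 27.4 and 29.8 FPKM (mean 28.6 ± 1.69). On the same chromosome, chr11:12076792-12078689 was at 30.5 (replicate 1) and 25.3 FPKM (replicate 2), at 37313 bases from LOC_Os11g20790, which was higher at 84.6 and 89.1 FPKM. The next in distance, chr4:35499409-35500689, was at 5.01 and 4.76 FPKM, 36309 bases from LOC_Os04g59630 at 24.6 and 23.5 FPKM. This locus stood in the last pass, and its levels came to 138 fragments in replicate 1 (95% Poisson interval 116 to 163) and 123 in replicate 2 (102 to 147), which overlap.

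On the organelle genomes most loci were low. Of the 11 chloroplast loci 5 reached 1 FPKM in both libraries, against 1 of the 14 mitochondrial loci. The highest chloroplast locus in both was the short one at 49161 given above, followed by chrC:103523-105089 at 13.7 (replicate 1) and 14.7 FPKM (replicate 2). The chloroplast and mitochondrial loci together summed to 0.0159% of all FPKM in replicate 1 and 0.0101% in replicate 2, in libraries enriched on oligo(dT).

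At most loci without an ID the libraries were less than 2-fold apart, but their spread was wider than at rows with 1 ID. Over the 874 loci with a mean of at least 1 FPKM, the median difference of log2(FPKM + 1), replicate 2 minus replicate 1, was 0.01 (quartiles -0.15 and 0.16). For the 20461 rows with 1 ID it was -0.0049 (quartiles -0.0858 and 0.0635). A difference of at least 2-fold on this scale was found at 27 of 874 loci (3.09%), against 0.781% of all 22415 entries at that level. The count was 55 with a pseudocount of 0.1 in place of 1, and 4 with a mean of at least 5 FPKM. In replicate 2, 9 loci were higher, against 0.236% of all entries, and 18 were lower, against 0.544%. The loci without an ID were also lower in level, with a median of 3.29 FPKM against 11.8 FPKM for rows with 1 ID. Within 2 to 5 FPKM, 15 of 282 loci (5.32%) and 50 of 3645 rows with 1 ID (1.37%) were 2-fold apart. Within 1 to 2 FPKM, where the pseudocount of 1 narrows differences most, the shares were 2.92% of 274 loci and 2.04% of 2303 rows. The quartiles of the difference there were -0.20 and 0.21 for loci and -0.17 and 0.12 for rows. Within 2 to 5 FPKM they were -0.17 and 0.19 for loci and -0.14 and 0.10 for rows.

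Most of the loci that were 2-fold apart were short. Of 61 loci that span 500 bases or less, 21 (34.4%) were at least 2-fold apart, against 6 of 813 longer loci (0.738%). At a span near the 285 and 281 bases deducted above, few fragments give a high FPKM. Whether this accounts for the unevenness was not tested.

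**Figure D5:**
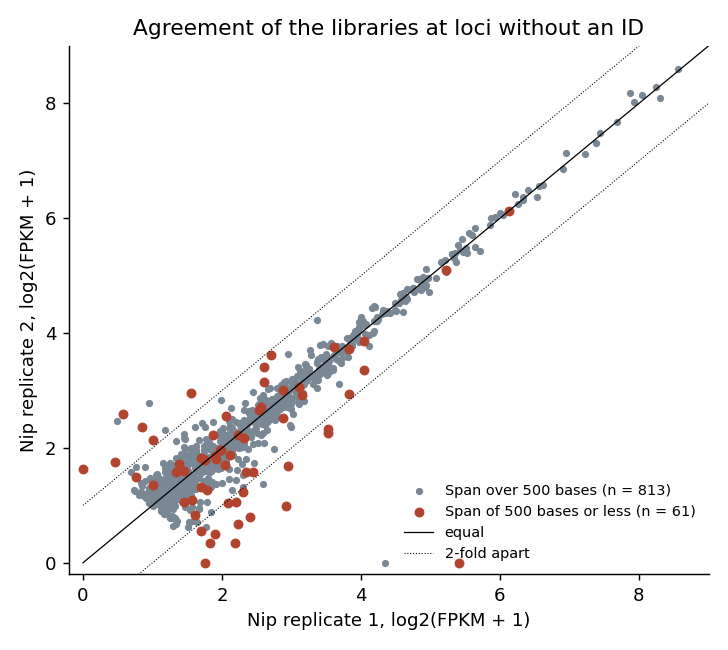
Level of each locus without an ID with a mean of at least 1 FPKM in Nip replicate 1 (horizontal) and replicate 2 (vertical), both as log2(FPKM + 1), with loci of 500 bases or less in red. Dotted lines mark a 2-fold difference, which 21 of 61 short loci and 6 of 813 longer loci reach.

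Of the 10 largest differences, 5 in each direction, 7 were at spans of 500 bases or less. The largest was at the mitochondrial locus chrM:86834-87014, a span of 180 bases, at 41.7 FPKM in replicate 1 but 0 in replicate 2. The next, chr12:14540605-14541916, shared its position with 2 annotated rows and was at 19.3 FPKM in replicate 1 but 0 in replicate 2. The highest of these annotated rows, LOC_Os12g25280, was at 4.41 and 4.13 FPKM in replicates 1 and 2. At chr11:5433695-5434131, of 436 bases, the levels were 6.60 and 0.985 FPKM, and at chr3:11684455-11684880, of 425 bases, 3.55 and 0.264 FPKM.

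In the other direction, chr7:23378205-23378553, of 348 bases, was at 0.490 (replicate 1) and 5.01 FPKM (replicate 2). With the step found above these were at most 4.73 and 45.1 fragments, since the usable length cannot exceed the span. The locus chr12:6223990-6577329, which shares a span of 353339 bases with 45 annotated rows, was at 0.400 and 4.52 FPKM. At chr9:1535189-1544371 the levels were 0.933 (replicate 1) and 5.90 FPKM (replicate 2). There the highest annotated row of the same position, LOC_Os09g03200, went the opposite way, at 35.9 (replicate 1) and 3.65 FPKM (replicate 2). No source used here says how fragments were divided between rows of 1 position. The remaining 3 of the 10 spanned 367 bases or less and had levels between 0 and 4.15 FPKM.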

How the data were processed

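The authors deposited FPKM values, estimated per row and library, per the file headers; TopHat is listed, with no version, per the submitters' processing notes, and no source used here names the estimator or build. The table gives no read counts. Library names with ck and the number 1 or 2 were read as Nip replicates 1 and 2, ck being taken as control. Values of 4 further library names, 1 of them with ck, were not used, so the planned limma test of osrdr2-3 against Nip was not run. Levels of rows at 1 position were summed, spans are end minus start, and a gap is 0 where spans overlap. IDs on ChrSy and ChrUn have other names and count as IDs. Named were the 10 highest loci, extremes of span, gap and library difference; OsRDR2 and 11 marker genes served as checks, with symbols that RefSeq lists on the same chromosome. Organelle totals, windows, passes and the step fit were added after values were seen. The members and lists were chosen with earlier results of these data known. The gap search, differences and step fit were tested on simulated data. Software was Python 3.11.15 with pandas 2.3.3, NumPy 2.4.6 and SciPy 1.17.1. Intervals cover counting error only, and no sequence was analysed.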

Additional observations from a re-analysis of the deposited data

How the results depend on the processing

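The count of loci at or above 1 FPKM in both libraries was 789, and it was 295 with a minimum of 5 FPKM and 861 to 880 with either library alone. With a minimum of 0.5 FPKM it was 1053, and the 6 other settings gave 726 to 813. The count of loci at least 2-fold apart was 27, and it was 55 with a pseudocount of 0.1 and 4 with a mean of at least 5 FPKM, a setting under which fewer loci are counted. The 6 other settings gave 23 to 33. The share of loci within 1000 bases of a row with an ID was 46.1%. It was 11.4% between midpoints, which adds part of both spans, 43.0% for loci at or above 1 FPKM, 39.9% without loci at a shared position and 45.3% against rows with exactly 1 ID. OsRDR2 was at 13.3 FPKM, and at 12.8 to 13.8 FPKM in the single libraries. Taking each row, or the highest row, in place of the sum, leaving out shared positions and leaving out the organelles were chosen after the data were seen. No paired analysis was possible because the mutant-named libraries, which could not be matched to labelled samples, were left out. The limma test between genotypes and its alternatives were therefore not run. Depth limits the low loci most: of the 549 loci for which fragments were computed, 81 had 3 or fewer in both libraries.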

Other observations

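Small groups of loci without an ID stood side by side. On the numbered chromosomes, 131 loci formed 62 groups in which each lay within 1000 bases of the next, and no group had more than 3. Of the 7 groups of 3, the highest was on chromosome 10 from 9949030 to 9953097, with a summed level of 14.4 (replicate 1) and 14 FPKM (replicate 2). The next, on chromosome 1 from 10941387 to 10945090, summed to 8.31 and 13.2 FPKM and includes the shortest expressed locus. The group on chromosome 5 from 22167456 to 22172483 was listed at 0 at all 3 loci in both Nip libraries. These groups were chosen after their values were seen.

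The authors' test status of this pair of libraries was OK for 1363 of the 1750 rows without an ID (77.9%), against 44.2% of rows with an ID. The 2 kinds also differed in rows listed at 0 in both libraries. These were 4.91% of rows without an ID and 44.2% of rows with one, and the status was not compared without them. The 2 shares of status are therefore not a comparison at like levels. In the last pass of the table it was OK for 557 of 802 rows (69.5%), against 399 of 470 (84.9%) in the first pass and 397 of 447 (88.8%) in the second. Every locus at or above 1 FPKM in both libraries had at least 1 row with that status.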
